A study of Rattus norvegicus with 9 samples.

Results

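Prostaglandins are lipid signals made from arachidonic acid, which phospholipases release from membranes. The cyclooxygenases *Ptgs1* (COX-1, usually expressed steadily) and *Ptgs2* (COX-2, usually induced) convert it to prostaglandin H2, terminal synthases then make a particular prostaglandin, and each prostaglandin acts on its own G protein-coupled receptors. In inflamed or injured tissue, prostaglandins made by stromal cells are known to raise blood flow and to sensitize sensory nerve endings. The genes described here are the cyclooxygenases *Ptgs1* and *Ptgs2*, the synthases *Ptges* (prostaglandin E2), *Ptgis* (prostacyclin) and *Ptgds* (prostaglandin D2), and the receptors *Ptger1*, *Ptger2*, *Ptger3*, *Ptger4* and *Ptgfr*. They were chosen by name, with earlier results of these data known. Of these 10 genes, 9 have a row among the 32883 genes of the expression tables, and *Ptgis* was not analysed here.

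Cultured rat fibroblasts gave 9 RNA libraries, 3 from the epineurium, the outer sheath of the sciatic nerve (Fb-Epn), 3 from the nerve parenchyma that remains once this sheath is removed (Fb-Par), and 3 from abdominal skin (Fb-Skn). The rats were wild-type Lewis males, 10 weeks old, with 2 rats giving the nerves and 1 other rat the skin, and none of the groups received a treatment. Cells were freed with collagenase and trypsin, grown in medium with serum on uncoated flasks and passaged 1 time. Cells that had not attached soon after seeding were removed with a change of medium, and no other sorting step is described. Nothing states that the 3 samples of a type were separate cultures, so each SD and p-value measures the spread between samples, which may be technical. Tissue, rat and body site cannot be told apart where Fb-Skn is compared with either nerve type. Total counts were 10084584 to 12310506 per library. Levels are given as TPM (counts divided by gene length and scaled to a fixed sum per library), and differences as log2 fold changes with SE from edgeR's quasi-likelihood test on the counts, with Benjamini-Hochberg adjusted p-values over 13273 tested genes. A difference was called at an adjusted p under 0.01, and DE genes also changed more than 4-fold. An exact permutation test of 3 samples against 3 cannot go below p = 0.10.

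The labelled cell type was checked against marker genes. The summed TPM of 9 fibroblast markers was 38012 to 38211 in Fb-Epn and 32045 to 32968 in Fb-Par, against 32901 to 34252 in Fb-Skn. The 9 macrophage markers summed to 1213 to 1285 TPM in Fb-Epn and 236 to 248 in Fb-Par, compared with 75.9 to 79.3 in Fb-Skn, with none at 0 throughout a type and 9 of 9 highest in Fb-Epn by mean TPM. The 9 Schwann cell markers summed to 193 to 204 TPM in Fb-Epn and 270 to 276 in Fb-Par, against 11.9 to 14.2 in Fb-Skn, where markers such as *Sox10*, *Erbb3* and *Cdh19* were at 0 counts. Of these 9 markers, 8 were highest in Fb-Par and 1, *S100b*, in Fb-Epn, and 8 were lowest in Fb-Skn. The 10 pericyte and smooth muscle markers summed to 3578 to 3806 TPM in Fb-Epn and 5884 to 6060 in Fb-Par, compared with 10916 to 11377 in Fb-Skn. *Acta2* alone made up 84.8% to 92.6% of the type means of this sum, and of the 10 markers 2 (*Acta2* and *Cnn1*) were highest in Fb-Skn, 7 in Fb-Par and 1 in Fb-Epn by mean TPM, with *Rgs5* and *Kcnj8* at 0 counts in Fb-Skn. The sum of the 10 perineurial markers was highest in Fb-Epn, at 254 to 268 TPM against 93.5 to 101 in Fb-Par and 116 to 128 in Fb-Skn, but of the 9 with counts 5 had their highest mean in Fb-Epn, 1 in Fb-Skn and 3 in Fb-Par. Endothelial markers summed to at most 38.5 TPM, keratinocyte markers to at most 4.76 and mast cell markers to at most 3.27 in any library. In bulk RNA, fewer cells of a type and less RNA per cell cannot be told apart.

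The cultures differed in the levels of these genes. *Ptgs2* in Fb-Epn was 4.31-fold above its Fb-Skn level and 5.22-fold above its Fb-Par level. *Ptges* was 11.7-fold and *Ptger3* 15.9-fold lower in Fb-Epn than in Fb-Skn. *Ptger2* was detected mainly in Fb-Epn, and *Ptgfr* was highest there. Of the 9 measured genes, 8 passed the expression filter, and *Ptgds* did not. *Ptger2* passed only through Fb-Epn, with 15 to 19 counts per library there, at most 3 in Fb-Par and at most 1 in Fb-Skn. Its place in the Fb-Epn counts below, of calls and of non-overlap, and in the medians is therefore no independent support. For Fb-Epn against Fb-Skn, 7 of the 8 were called, 4 higher and 3 lower in Fb-Epn, where 43.9% of all tested genes were called (23.0% higher and 20.9% lower). Between Fb-Epn and Fb-Par, 6 of the 8 were called, 4 higher and 2 lower in Fb-Epn, where 38.8% of all tested genes were called (20.2% higher and 18.6% lower). Between Fb-Par and Fb-Skn, 5 of the 8 were called, 1 higher and 4 lower in Fb-Par, where 45.6% of all tested genes were called (23.2% higher and 22.4% lower). For Fb-Epn against Fb-Skn, 4 of the 8 were DE genes (8.44% of all tested genes), for Fb-Epn against Fb-Par 2 (6.48%) and for Fb-Par against Fb-Skn 2 (8.54%). Requiring at least 10 counts in every library removes *Ptger2*. The called genes were then 6 for Fb-Epn against Fb-Skn and 5 for Fb-Epn against Fb-Par, and the DE genes 3 and 1. The shares of all tested genes called under that filter are not given here. The median absolute log2 fold change of the 8 genes was 1.47, 0.73 and 1.07 in these comparisons, in that order, and that of all tested genes 0.33, 0.28 and 0.34. *Ptger2*, at 5.02, 3.185 and 1.84, lies above the median each time, so without it these medians would be lower. On CPM scaled by TMM, the libraries of the compared types did not overlap for 8 of the 8 genes in Fb-Epn against Fb-Skn (61.1% of all tested genes), for 6 between Fb-Epn and Fb-Par (57.2%) and for 6 between Fb-Par and Fb-Skn (62.0%). The 3 comparisons share libraries and are not independent of each other.

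**Figure D1:**
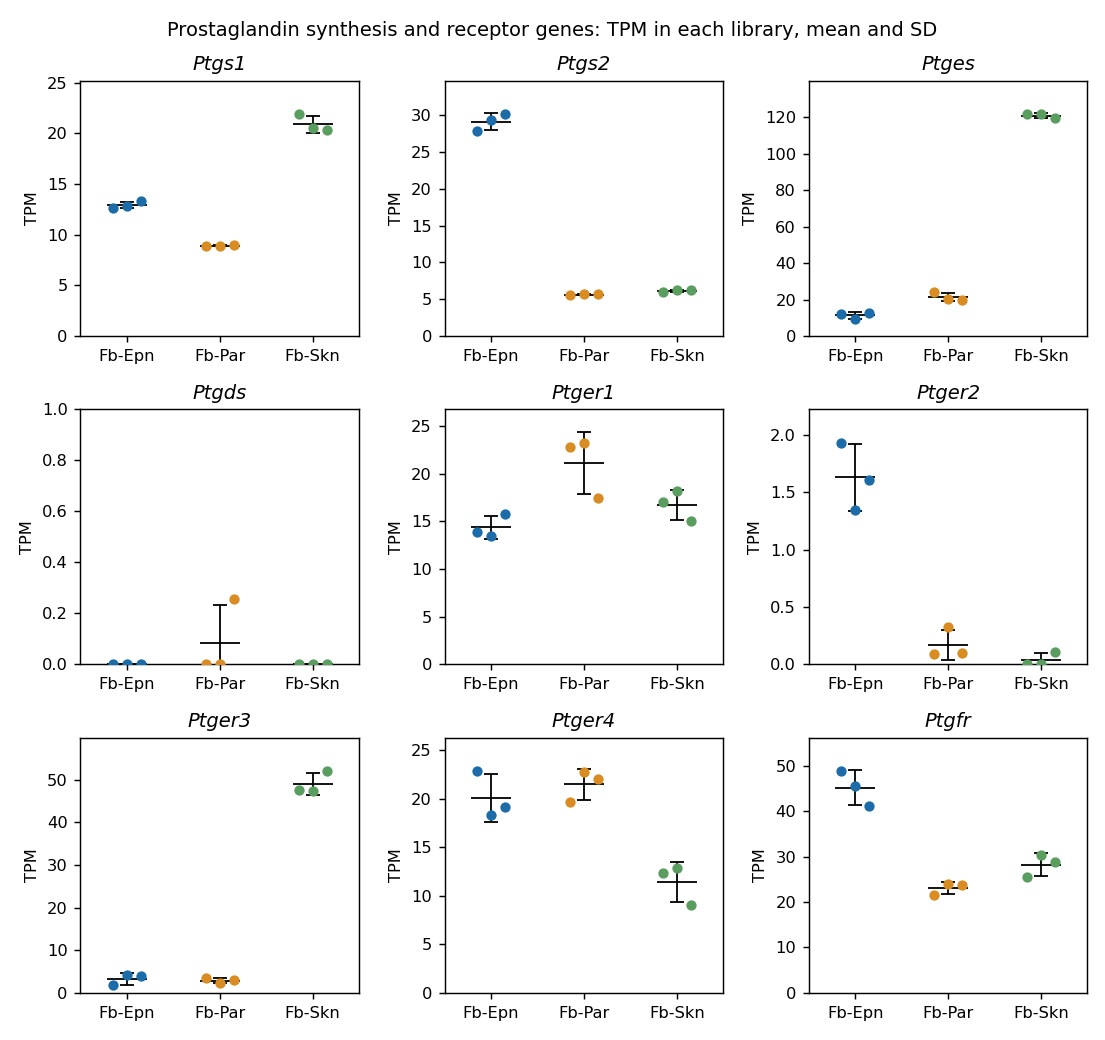
TPM (linear axis, a scale for each gene) of the 9 measured genes in every library, with 3 points per cell type, a bar at the mean and whiskers of 1 SD. *Ptgs2* lies near 29.1 TPM in Fb-Epn and near 6 elsewhere, while *Ptges* and *Ptger3* reach 121 and 49.0 TPM in Fb-Skn.

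The promoter sequences of 4 of these genes are shown because the cyclooxygenase pair differed in pattern while *Ptges* and *Ptger3* were both highest in Fb-Skn. They come from RefSeq (GRCr8), run 5′ to 3′ on the gene's own strand, and cover 250 bases before the start site and 50 bases from it on. All 9 measured genes had an entry. The windows are chr3:39981169-39981468 (plus strand) for *Ptgs1*, chr13:64713813-64714112 (plus) for *Ptgs2*, chr3:34586938-34587237 (minus) for *Ptges* and chr2:249264832-249265131 (plus) for *Ptger3*. Capitals mark matches, on either strand, to the motifs searched.
Ptgs1: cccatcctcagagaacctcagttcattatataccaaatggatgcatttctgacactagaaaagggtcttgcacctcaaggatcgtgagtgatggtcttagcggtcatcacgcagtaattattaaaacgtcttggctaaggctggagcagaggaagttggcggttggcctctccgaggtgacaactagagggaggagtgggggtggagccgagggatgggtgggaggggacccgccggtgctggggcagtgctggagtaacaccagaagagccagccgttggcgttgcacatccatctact
Ptgs2: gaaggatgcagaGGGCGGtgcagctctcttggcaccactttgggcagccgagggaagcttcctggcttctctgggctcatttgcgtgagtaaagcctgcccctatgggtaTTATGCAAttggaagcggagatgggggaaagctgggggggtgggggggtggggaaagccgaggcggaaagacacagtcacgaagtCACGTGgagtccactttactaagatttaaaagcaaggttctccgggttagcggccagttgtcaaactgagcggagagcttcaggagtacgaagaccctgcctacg
Ptges: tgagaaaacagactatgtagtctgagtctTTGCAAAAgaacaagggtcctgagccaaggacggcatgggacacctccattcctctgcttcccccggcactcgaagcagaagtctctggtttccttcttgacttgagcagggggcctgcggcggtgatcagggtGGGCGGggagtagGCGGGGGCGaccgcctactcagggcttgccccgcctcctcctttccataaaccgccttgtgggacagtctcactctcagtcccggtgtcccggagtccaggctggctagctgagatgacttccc
Ptger3: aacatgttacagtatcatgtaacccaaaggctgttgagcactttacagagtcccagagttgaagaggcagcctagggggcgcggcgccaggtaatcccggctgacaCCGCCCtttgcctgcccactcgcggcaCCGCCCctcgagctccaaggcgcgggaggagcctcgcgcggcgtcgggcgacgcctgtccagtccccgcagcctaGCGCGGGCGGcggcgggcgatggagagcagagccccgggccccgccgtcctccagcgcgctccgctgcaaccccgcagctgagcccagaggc

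The motifs searched were the TATA box (TATAAA), E-box (CACGTG), CRE half-site (TGACG), GC box (GGGCGG), C/EBP (TTNNGCAA), AP-1 (TGANTCA), NF-kB and EGR (GCGNGGGCG). The *Ptgs2* window held a GC box at -238, a C/EBP match at -140 and an E-box at -55 from the start site. Over all 33469 promoters of the table, 33.1% held a GC box, 10.6% a C/EBP match and 6.42% an E-box. The *Ptges* window held a C/EBP match at -221, a GC box at -87 and an EGR match at -74, the last found in 4.98% of all promoters. The *Ptger3* window held GC boxes at -144, -117 and -38 and an EGR match at -42 that overlaps the last GC box, and its GC content was 69.7% against a median of 51.7% over all promoters. The *Ptgs1* window held no match to any of the 8 motifs. Of the motifs not found in these 4 windows, TATAAA was in 14.2%, TGACG in 21.2%, TGANTCA in 7.33% and the NF-kB motif in 1.11% of all promoters. These matches describe letters in the window and no measurement of binding was made.

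*Ptgs2* (ENSRNOG00000002525, rn6 chromosome 13, 67351087 to 67359335, plus strand) had TPM of 27.9, 29.4 and 30.2 in Fb-Epn and 5.55, 5.64 and 5.68 in Fb-Par, against 5.96, 6.20 and 6.24 in Fb-Skn. Every Fb-Epn library was far above the other 6, which lay close together. The mean level was 29.1 ± 1.17 TPM in Fb-Epn and 5.62 ± 0.0689 in Fb-Par, compared with 6.14 ± 0.154 in Fb-Skn (SD, n = 3 each). The log2 fold change was 2.11 (SE 0.0724) for Fb-Epn against Fb-Skn (adjusted p = 4.7e-12, edgeR) and 2.38 (SE 0.0732) for Fb-Epn against Fb-Par (adjusted p = 1.5e-12, edgeR). The Fb-Par libraries were all slightly below the Fb-Skn libraries, but that difference was not called, with a log2 fold change of -0.28 and a 95% interval of -0.45 to -0.10 (adjusted p = 0.016, edgeR). The macrophage markers were also highest in Fb-Epn, where mean TPM of *Cd68* was 153 in Fb-Epn and 27.8 in Fb-Par, against 7.87 in Fb-Skn, and that of *Ptprc* was 5.80, 1.44 and 0.362. Of the 9 endothelial markers, 7 were highest in Fb-Epn as well. The part of macrophage or endothelial RNA in the *Ptgs2* level was not tested.

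*Ptgs1* (ENSRNOG00000007415, rn6 chromosome 3, 15560712 to 15582344, plus strand) had another order, highest in Fb-Skn and lowest in Fb-Par. Its TPM was 12.6, 12.8 and 13.3 in Fb-Epn and 8.91, 8.88 and 8.94 in Fb-Par, compared with 21.9, 20.6 and 20.3 in Fb-Skn. No library of a type overlapped with those of another. The log2 fold change was -0.84 (SE 0.0854) for Fb-Epn against Fb-Skn (adjusted p = 1.1e-06, edgeR), 0.55 (SE 0.0911) for Fb-Epn against Fb-Par (adjusted p = 0.00017) and -1.38 (SE 0.0888) for Fb-Par against Fb-Skn (adjusted p = 5.8e-09).

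The balance of the 2 cyclooxygenases therefore differed between the types. *Ptgs2* made up 69.3% ± 0.446 of the summed cyclooxygenase TPM in Fb-Epn but 38.7% ± 0.292 in Fb-Par and 22.7% ± 1.13 in Fb-Skn (SD, n = 3 each). The summed TPM of both genes was 42.1 ± 1.47 in Fb-Epn and 14.5 ± 0.0785 in Fb-Par, against 27.0 ± 0.688 in Fb-Skn. *Ptgs2* was thus the larger component in Fb-Epn and *Ptgs1* in both other types.

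**Figure D2:**
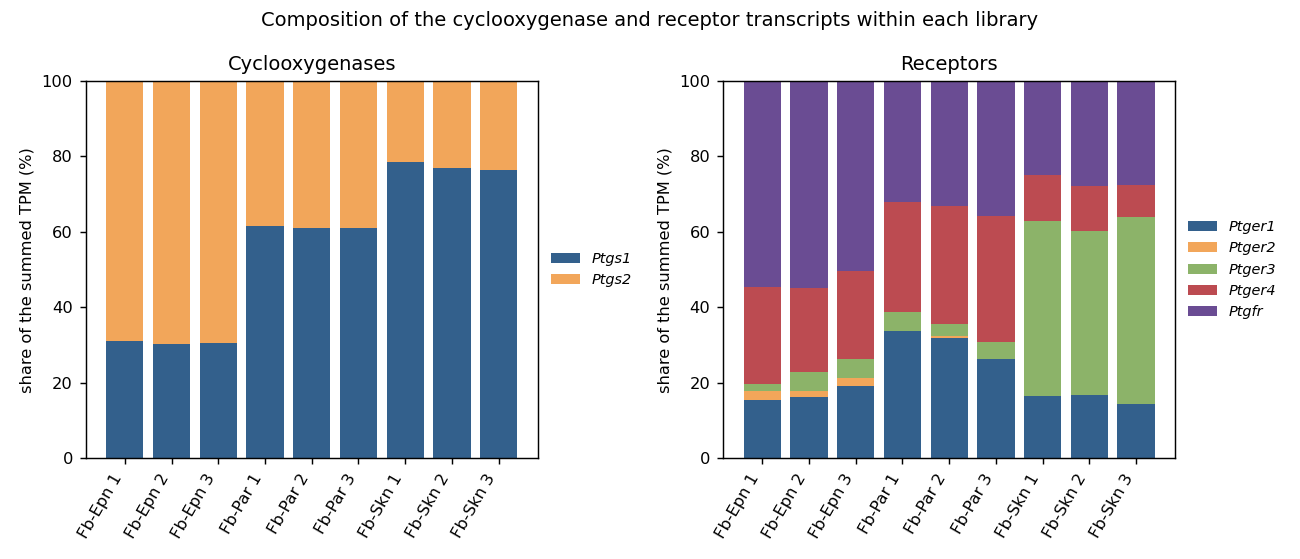
Share of the summed TPM (percent, stacked to 100) that each cyclooxygenase (left) and each receptor (right) took in each of the 9 libraries. *Ptgs2* took 69.3% of the cyclooxygenase TPM in Fb-Epn and 22.7% in Fb-Skn, and *Ptger3* took 46.5% of the receptor TPM in Fb-Skn.

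*Ptges* encodes microsomal prostaglandin E synthase-1, the inducible enzyme that turns prostaglandin H2 into prostaglandin E2. *Ptges* (ENSRNOG00000006320, rn6 chromosome 3, 9727408 to 9738752, minus strand) had TPM of 12.2, 9.27 and 12.7 in Fb-Epn and 24.1, 20.5 and 19.8 in Fb-Par, compared with 121.6, 121.7 and 119.7 in Fb-Skn. The order was Fb-Skn, Fb-Par, Fb-Epn, with no overlap between types, and so unlike that of *Ptgs2*. For *Ptges* the log2 fold change was -3.55 (SE 0.105) for Fb-Epn against Fb-Skn (adjusted p = 8.4e-13, edgeR), -2.64 (SE 0.0964) for Fb-Par against Fb-Skn (adjusted p = 8.7e-12) and -0.91 (SE 0.12) for Fb-Epn against Fb-Par (adjusted p = 1.7e-05). The last corresponds to 1.88-fold. *Acta2* and *Cnn1* were also highest in Fb-Skn, unlike the other 8 pericyte and smooth muscle markers, and the part of such cells in the *Ptges* level was not tested. The neighbouring gene *Prrx2*, a homeobox gene 9357 bases away on the opposite strand and singled out after its values were seen, also differed. Its TPM was 203.9, 189.5 and 205.0 in Fb-Epn and 154.0, 141.6 and 143.7 in Fb-Par, against 699.2, 705.1 and 715.5 in Fb-Skn. Its log2 fold change was -1.97 for Fb-Epn against Fb-Skn (adjusted p = 2.3e-14, edgeR), -2.42 for Fb-Par against Fb-Skn (adjusted p = 2.3e-15) and 0.45 for Fb-Epn against Fb-Par (adjusted p = 6.7e-07), so its order of the nerve-derived types was the reverse of that of *Ptges*.

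*Ptgds* (ENSRNOG00000015550), the lipocalin-type prostaglandin D synthase, had 1 count in Fb-Par replicate 3 and 0 in the other 8 libraries. A count of 0 allows up to 3 counts, or 0.244 to 0.297 CPM (counts scaled to the library total) across the libraries, so expression was not detectable at this depth. These limits, like all counting intervals here, cover counting error only.

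The receptors for prostaglandin E2 differ in coupling. *Ptger1* (EP1) raises calcium, *Ptger2* (EP2) and *Ptger4* (EP4) raise cyclic AMP through Gs, and *Ptger3* (EP3) mainly lowers it through Gi. *Ptgfr* (FP) is the prostaglandin F2α receptor and couples to Gq. The summed TPM of the 5 receptors was 84.6 ± 4.00 in Fb-Epn and 68.8 ± 3.39 in Fb-Par, compared with 105.4 ± 3.17 in Fb-Skn (SD, n = 3 each), and the receptors that made up most of it differed between the types.

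*Ptger3* (ENSRNOG00000010325, rn6 chromosome 2, 263895241 to 263979698, plus strand) had TPM of 1.76, 4.23 and 4.05 in Fb-Epn and 3.40, 2.27 and 2.95 in Fb-Par, against 47.5, 47.4 and 52.0 in Fb-Skn. Each Fb-Skn library was far above all 6 nerve-derived libraries, and the nerve-derived types overlapped. For *Ptger3* the log2 fold change was -3.99 (SE 0.194) for Fb-Epn against Fb-Skn (adjusted p = 2.7e-10, edgeR) and -4.23 (SE 0.2) for Fb-Par against Fb-Skn (adjusted p = 1.6e-10), the latter 18.7-fold. Fb-Epn against Fb-Par was not called, with a log2 fold change of 0.23 and a 95% interval of -0.32 to 0.79 (adjusted p = 0.49, edgeR). *Ptger3* took 46.5% of the receptor TPM in Fb-Skn, 4.01% in Fb-Epn and 4.20% in Fb-Par. Of the 10 pericyte and smooth muscle markers, 2 (*Acta2* and *Cnn1*) were highest in Fb-Skn too, but 7 were highest in Fb-Par and 1 in Fb-Epn. Of the 10, 5 were lowest in Fb-Skn. The part of such cells in the *Ptger3* level was not tested.

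*Ptger2* (ENSRNOG00000050968, rn6 chromosome 15, 19338175 to 19350210, plus strand) was low throughout, with 19, 15 and 16 counts in Fb-Epn and 1, 3 and 1 in Fb-Par, compared with 0, 0 and 1 in Fb-Skn. The 3 Fb-Epn libraries stood clear of all others, at 1.93, 1.35 and 1.61 TPM against at most 0.323. The difference was called for Fb-Epn against Fb-Skn (adjusted p = 7.6e-05, edgeR) and against Fb-Par (adjusted p = 0.0004). Since the lower groups were near 0, its size is given as the ratio of summed counts per total count. This was 45.9 (exact 95% interval 7.86 to 1847) from 50 counts in Fb-Epn and 1 in Fb-Skn, and 9.68 (3.88 to 31.1) from 50 counts and 5 in Fb-Par. Fb-Par against Fb-Skn was not called (adjusted p = 0.2, edgeR), with a 95% interval of the log2 fold change of -0.69 to 4.36. The macrophage marker *Csf1r* had mean TPM of 13.8 in Fb-Epn and 7.18 in Fb-Par, against 1.21 in Fb-Skn. Of the 9 endothelial markers, 7 were highest in Fb-Epn. The part of macrophage or endothelial RNA in these *Ptger2* counts was not tested.

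*Ptger4* (ENSRNOG00000013240, rn6 chromosome 2, 54952821 to 54963448, minus strand) separated skin from nerve in the other direction. Its TPM was 22.8, 18.3 and 19.1 in Fb-Epn and 19.7, 22.8 and 22.03 in Fb-Par, compared with 12.3, 12.8 and 9.06 in Fb-Skn. All nerve-derived libraries exceeded all Fb-Skn libraries, while Fb-Epn and Fb-Par overlapped. For *Ptger4* the log2 fold change was 0.67 (SE 0.149) for Fb-Epn against Fb-Skn (adjusted p = 0.0015, edgeR) and 0.76 (SE 0.148) for Fb-Par against Fb-Skn (adjusted p = 0.00054). Between Fb-Epn and Fb-Par it was -0.09, with a 95% interval of -0.39 to 0.21 (adjusted p = 0.64, edgeR). *Ptger4* took 31.3% of the receptor TPM in Fb-Par, 23.7% in Fb-Epn and 10.8% in Fb-Skn. Of the 9 Schwann cell markers, 8 were likewise lowest in Fb-Skn, as were 8 of the 9 macrophage and 7 of the 9 endothelial markers. The part of such cells in the *Ptger4* level was not tested.

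*Ptgfr* (ENSRNOG00000046468, rn6 chromosome 2, 257005829 to 257038105, minus strand) had TPM of 48.8, 45.6 and 41.2 in Fb-Epn and 21.6, 24.03 and 23.7 in Fb-Par, against 25.5, 30.3 and 28.9 in Fb-Skn. Fb-Epn was highest, and the lowest Fb-Skn library was just above the highest Fb-Par library. For *Ptgfr* the log2 fold change was 0.98 (SE 0.078) for Fb-Epn against Fb-Par (adjusted p = 8.1e-08, edgeR), 0.54 (SE 0.0767) for Fb-Epn against Fb-Skn (adjusted p = 3.1e-05) and -0.44 (SE 0.0807) for Fb-Par against Fb-Skn (adjusted p = 0.00034). On log2(TPM + 1) with limma the last was -0.27 and no longer called (adjusted p = 0.019). *Ptgfr* was the most abundant of the 5 receptors in Fb-Epn, at 53.4% of the receptor TPM, and took 33.6% in Fb-Par and 26.8% in Fb-Skn. All 9 macrophage markers, 7 of the 9 endothelial markers and 5 of the 9 perineurial markers with counts were highest in Fb-Epn too. The part of such cells in the *Ptgfr* level was not tested.

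*Ptger1* (ENSRNOG00000004094, rn6 chromosome 19, 24800072 to 24803373, plus strand) is the receptor whose values depended most on the deposited unit. Its TPM was 13.9, 13.5 and 15.8 in Fb-Epn and 22.8, 23.2 and 17.4 in Fb-Par, compared with 17.0, 18.1 and 15.1 in Fb-Skn, so Fb-Par was above Fb-Epn while Fb-Skn overlapped with both in TPM, and with Fb-Par alone on CPM scaled by TMM. The log2 fold change for Fb-Epn against Fb-Par was -0.55 (SE 0.129, adjusted p = 0.0026, edgeR). This call was lost without Fb-Epn replicate 1 (adjusted p = 0.011), Fb-Epn replicate 2 (0.013), Fb-Par replicate 1 (0.014) or Fb-Par replicate 2 (0.014). Fb-Epn against Fb-Skn, at -0.36 with a 95% interval of -0.64 to -0.08 (adjusted p = 0.03, edgeR), and Fb-Par against Fb-Skn, at 0.19 with an interval of -0.09 to 0.46 (adjusted p = 0.23), were not called. The deposited FPKM, a second length-corrected unit, gave another picture of this gene, at 1.48 ± 0.462 in Fb-Epn and 1.52 ± 0.579 in Fb-Par, against 1.37 ± 0.24 in Fb-Skn (SD, n = 3 each). FPKM divided by TPM was 0.0509 to 0.128 for *Ptger1* in the 9 libraries, while the median over genes above 1 TPM was 0.463 to 0.496 per library. On log2(FPKM + 1), an alternative added after these values were seen, the difference between Fb-Epn and Fb-Par was -0.01 (adjusted p = 0.97, limma).

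**Figure D3:**
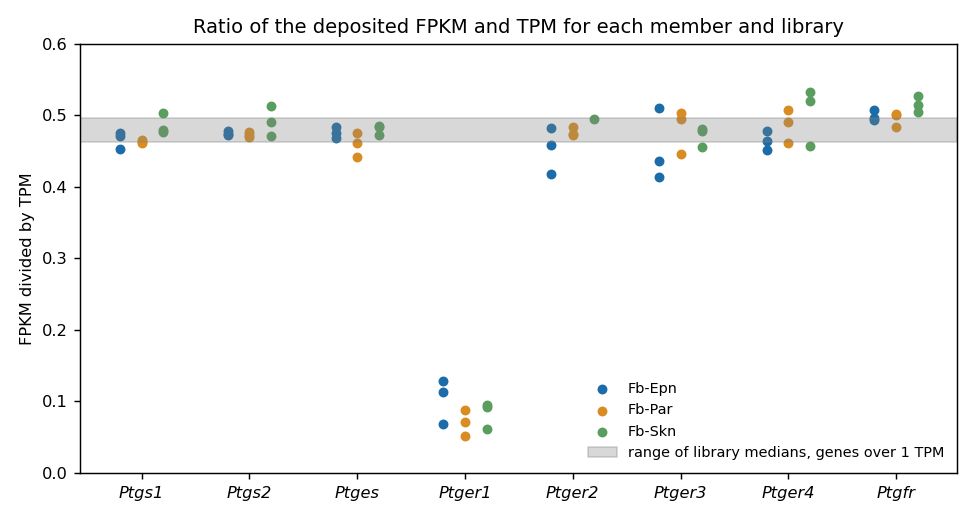
Deposited FPKM divided by deposited TPM for the 8 genes tested, with a point for each library that had a count, colored by cell type, and a grey band for the range of the library medians over genes (0.463 to 0.496). *Ptger1* lies at 0.0509 to 0.128, apart from the other 7 genes.

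**Figure D4:**
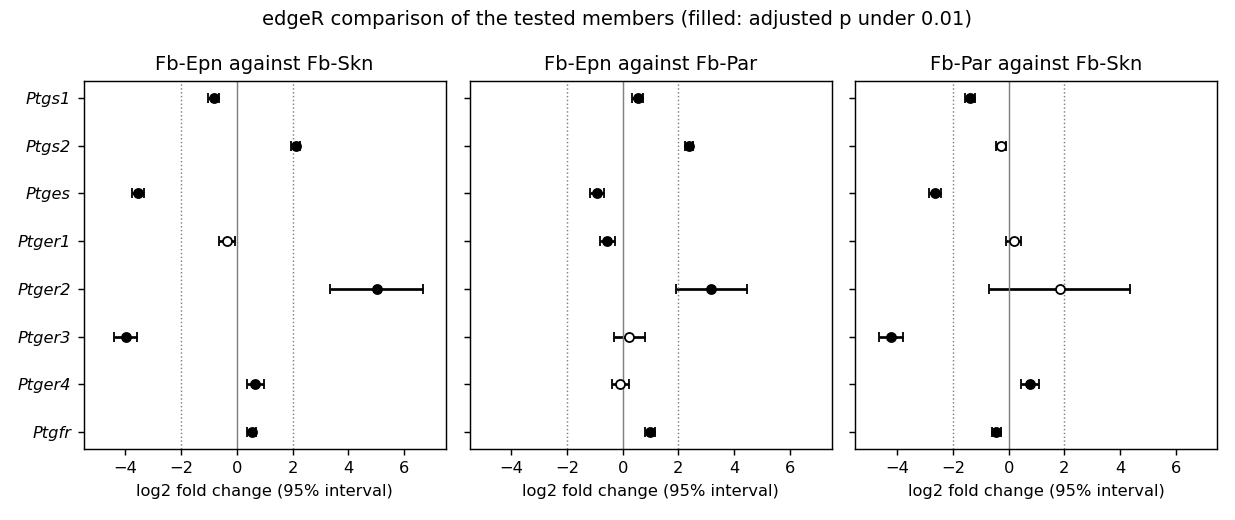
Log2 fold changes (first type minus second) of the 8 tested genes with 95% intervals in the 3 comparisons, filled where the edgeR adjusted p was under 0.01, with dotted lines at a 4-fold change. *Ptges* and *Ptger3* lie below -2 in both comparisons with Fb-Skn, *Ptgs2* lies above 2 in both comparisons of Fb-Epn, and the wide intervals of *Ptger2* go with its low counts.

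The genes around this set were followed in 7 lists of 87 names, of which 62 rows were tested. Of these, 33 were called for Fb-Epn against Fb-Skn (53.2%, 17 higher and 16 lower in Fb-Epn), 35 between Fb-Epn and Fb-Par (56.5%, 18 higher and 17 lower) and 36 between Fb-Par and Fb-Skn (58.1%, 19 higher in Fb-Par and 17 lower). Over all tested genes, 43.9%, 38.8% and 45.6% were called in these comparisons. The list for arachidonate release gave 9 tested genes, and not all of these, such as *Pla2g7* and *Plaa*, need release arachidonate themselves. Against Fb-Skn, 4 were higher and 1 was lower in Fb-Epn. Against Fb-Par, 2 were higher and 3 lower in Fb-Epn. In Fb-Par against Fb-Skn, 3 were higher and 1 was lower. In these comparisons, 43.9%, 38.8% and 45.6% of all tested genes were called in either direction. *Pla2g4a*, the cytosolic phospholipase A2 that supplies arachidonic acid, had TPM of 18.8, 22.5 and 20.6 in Fb-Epn and 25.4, 26.4 and 26.4 in Fb-Par, compared with 3.97, 4.23 and 4.14 in Fb-Skn. It was thus high in both nerve-derived types, with log2 fold changes of 2.19 (SE 0.0952) for Fb-Epn and 2.51 (SE 0.0941) for Fb-Par against Fb-Skn (adjusted p = 7.6e-11 and 1.2e-11, edgeR). *Mgll*, the monoacylglycerol lipase that yields arachidonic acid from an endocannabinoid, had the same order, at 33.1 ± 3.42 TPM in Fb-Epn and 44.1 ± 3.49 in Fb-Par, against 7.65 ± 0.163 in Fb-Skn (SD, n = 3 each). Its log2 fold changes against Fb-Skn were 1.97 in Fb-Epn (adjusted p = 3.3e-09, edgeR) and 2.37 in Fb-Par (adjusted p = 3e-10). Of the 9 Schwann cell markers, 7 had the same order as both genes (Fb-Par, Fb-Epn, Fb-Skn), and their part in these levels was not tested. Over the 9 genes the median log2 fold change was 0.20 for Fb-Epn against Fb-Skn, -0.13 for Fb-Epn against Fb-Par and 0.15 for Fb-Par against Fb-Skn, where the medians of all tested genes were -0.0028, -0.00018 and -0.012.

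Of the other terminal synthases, 6 were tested, and against Fb-Skn 1 was higher and 2 were lower in Fb-Epn (median log2 fold change -0.18). Against Fb-Par, 2 were higher in Fb-Epn and 0 lower (median 0.052), and 1 was higher and 2 were lower in Fb-Par against Fb-Skn (median -0.22), where 43.9%, 38.8% and 45.6% of all tested genes were called. *Tbxas1*, thromboxane synthase, had mean TPM of 9.49 ± 0.399 in Fb-Epn and 1.55 ± 0.255 in Fb-Par, compared with 0.507 ± 0.0696 in Fb-Skn (SD, n = 3 each). The log2 fold change was 4.05 (SE 0.256) for Fb-Epn against Fb-Skn (adjusted p = 5.3e-09, edgeR) and 2.62 (SE 0.215) for Fb-Epn against Fb-Par (adjusted p = 1.1e-07). This gene is known from platelets and macrophages, and 8 of the 9 macrophage markers had the same order (Fb-Epn, Fb-Par, Fb-Skn), but their part in the *Tbxas1* level was not tested. The constitutive prostaglandin E synthases showed smaller differences. *Ptges3* had 295 ± 14.9, 252 ± 3.60 and 253 ± 6.84 TPM (Fb-Epn, Fb-Par, Fb-Skn), and was called for Fb-Epn against Fb-Par (log2 fold change 0.24) and for Fb-Par against Fb-Skn (-0.16) but not for Fb-Epn against Fb-Skn (0.08). *Ptges2* had 12.9 ± 0.88, 11.98 ± 0.64 and 13.0 ± 1.86 TPM and was called in none of the 3 comparisons by edgeR (adjusted p = 0.082 to 0.45). *Akr1b1*, which can make prostaglandin F2α, was at 176 to 185 mean TPM in the 3 types and was called for Fb-Epn against Fb-Skn, at -0.21 on the log2 scale. *Gstm2*, a glutathione transferase of a multigene family whose similar copies may share reads, was higher in Fb-Skn, at 117 ± 2.88 TPM against 77.6 ± 10.3 in Fb-Epn and 79.4 ± 2.35 in Fb-Par. *Prxl2b* was called in no comparison by edgeR (adjusted p = 0.023 to 0.48). *Hpgds*, *Akr1c3* and *Cbr1* had at most 10, 20 and 11 counts in a library and were not tested.

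Of 8 tested genes of transport and breakdown, 1 was higher and 2 were lower in Fb-Epn against Fb-Skn (median log2 fold change 0.015), 1 was higher and 3 were lower in Fb-Epn against Fb-Par (median -0.25), and 2 were higher and 2 lower in Fb-Par against Fb-Skn (median 0.19), with the same 43.9%, 38.8% and 45.6% of all tested genes called. *Hpgd*, the 15-hydroxyprostaglandin dehydrogenase that inactivates prostaglandins, had 189 to 248 counts per library in Fb-Epn and 208 to 266 in Fb-Skn but 2 to 8 in Fb-Par. Its level was 24.02 ± 1.94 TPM in Fb-Epn, 27.3 ± 1.66 in Fb-Skn and 0.705 ± 0.409 in Fb-Par (SD, n = 3 each). The log2 fold change was 5.07 (SE 0.23) for Fb-Epn against Fb-Par (adjusted p = 1.3e-10, edgeR) and -5.40 (SE 0.227) for Fb-Par against Fb-Skn (adjusted p = 4.5e-11), while Fb-Epn against Fb-Skn was not called (-0.32, adjusted p = 0.062). Of the 9 perineurial markers with counts, 3 were also lowest in Fb-Par and 3 were highest there, and their part in the *Hpgd* level was not tested. The transporter *Slco3a1* was highest in Fb-Skn, at 31.2 ± 1.02 TPM against 8.95 ± 1.10 in Fb-Epn and 12.1 ± 1.56 in Fb-Par. The exporter *Abcc4* was highest in Fb-Par, at 14.1 ± 0.67 TPM against 7.05 ± 0.784 in Fb-Epn and 5.74 ± 0.588 in Fb-Skn. The reductase *Zadh2* had the order Fb-Par, Fb-Epn, Fb-Skn, at 12.8, 7.85 and 3.33 mean TPM, with all 3 differences called. *Ptgr2*, another reductase, was lower in Fb-Epn against Fb-Skn, with a log2 fold change of -0.27 (adjusted p = 0.0022, edgeR). The uptake carrier *Slco2a1*, the reductase *Ptgr1* and *Cbr4* were called in no comparison by edgeR, with adjusted p of 0.018 or more.

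**Figure D5:**
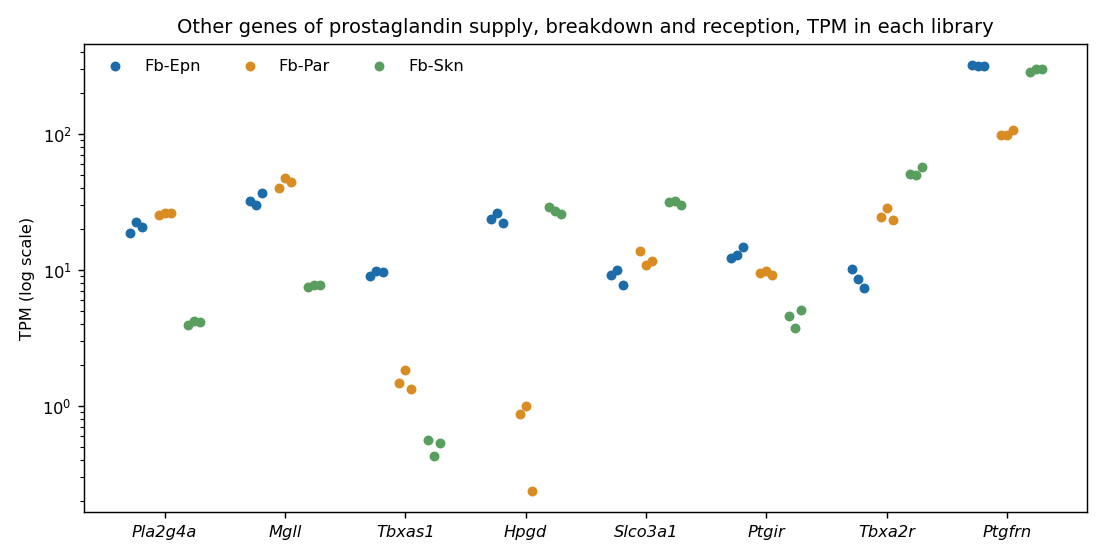
TPM (log axis) of 8 further genes of prostaglandin supply, breakdown and reception in every library, with 3 points per cell type. *Hpgd* is near 24.02 TPM in Fb-Epn and 27.3 in Fb-Skn but at most about 1 in Fb-Par, and *Pla2g4a* and *Mgll* are lowest in Fb-Skn.

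Of the other prostanoid receptors and *Ptgfrn*, 3 genes were tested. Against Fb-Skn, 1 was higher and 1 was lower in Fb-Epn (median log2 fold change -0.03). Against Fb-Par, 2 were higher and 1 was lower in Fb-Epn (median 0.50), and 1 was higher and 2 were lower in Fb-Par against Fb-Skn (median -1.21). Of all tested genes, 43.9%, 38.8% and 45.6% were called. *Tbxa2r*, the thromboxane receptor, had mean TPM of 8.72 ± 1.42 in Fb-Epn and 25.4 ± 2.86 in Fb-Par, against 52.8 ± 3.89 in Fb-Skn (SD, n = 3 each), an order opposite to that of *Tbxas1*. Its log2 fold change was -2.74 (SE 0.117) for Fb-Epn against Fb-Skn (adjusted p = 6.2e-11, edgeR), -1.53 (SE 0.122) for Fb-Epn against Fb-Par (adjusted p = 8.3e-08) and -1.21 (SE 0.104) for Fb-Par against Fb-Skn (adjusted p = 1.5e-07). *Ptgir*, the prostacyclin receptor, had the reverse order, at 13.3 ± 1.23 TPM in Fb-Epn and 9.45 ± 0.331 in Fb-Par, compared with 4.46 ± 0.689 in Fb-Skn. All 3 differences were called. Of the 9 macrophage markers 8 had the order of *Ptgir*, as had 6 of the 9 endothelial markers, and their part in its level was not tested. *Ptgfrn*, a membrane protein that inhibits binding of prostaglandin F2α to its receptor, was lowest in Fb-Par, at 101 ± 5.14 TPM against 317 ± 2.64 in Fb-Epn and 294 ± 7.12 in Fb-Skn. Its log2 fold change was 1.66 for Fb-Epn against Fb-Par (adjusted p = 1.5e-14, edgeR) and -1.69 for Fb-Par against Fb-Skn (adjusted p = 1e-14). *Ptgdr2*, a prostaglandin D2 receptor, had at most 2 counts in a library.

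In the remaining lists, 3 lipoxygenase and leukotriene genes were tested, with 1 higher and 0 lower in Fb-Epn against Fb-Skn (median log2 fold change 0.17), 1 higher and 1 lower in Fb-Epn against Fb-Par (0.31), and 1 higher and 0 lower in Fb-Par against Fb-Skn (0.24). Here and for the next lists, the shares of all tested genes called were 43.9%, 38.8% and 45.6%. *Alox5ap*, which presents arachidonic acid to 5-lipoxygenase, was at 4.94 ± 0.837 TPM in Fb-Epn and 3.66 ± 0.167 in Fb-Par, against 1.08 ± 0.0321 in Fb-Skn, with a log2 fold change of 2.03 for Fb-Epn against Fb-Skn (adjusted p = 0.00012, edgeR). It is a myeloid gene, and the part of macrophage RNA was not tested. *Alox5* itself had at most 1 count in a library. Among 18 tested rows for G proteins and adenylyl cyclases, 3 were higher and 7 lower in Fb-Epn against Fb-Skn (23.0% and 20.9% of all tested genes, median log2 fold change -0.0073), 4 were higher and 6 lower in Fb-Epn against Fb-Par (-0.074), and 7 were higher and 6 lower in Fb-Par against Fb-Skn (0.082). *Adcy8* had 45 to 51 counts in Fb-Skn, 15 to 20 in Fb-Epn and 2 to 5 in Fb-Par, with a log2 fold change of -3.71 for Fb-Par against Fb-Skn (adjusted p = 4.1e-07, edgeR). *Adcy1* had 12 to 21 counts in Fb-Par and at most 4 elsewhere, and passed the expression filter only through Fb-Par. Its log2 fold change for Fb-Par against Fb-Skn was 2.80 (SE 0.568, adjusted p = 0.00072, edgeR). Its size is uncertain, since Fb-Skn had 1 to 3 counts per library. The genes known to act on *Ptgs2* and *Ptges* transcription or mRNA decay gave 15 tested members, of which 6 were higher and 3 lower in Fb-Epn against Fb-Skn (23.0% and 20.9% of all tested genes), likewise 6 and 3 in Fb-Epn against Fb-Par (20.2% and 18.6%), and 4 and 4 in Fb-Par against Fb-Skn (median log2 fold changes 0.076, 0.16 and 0.025). *Cebpd*, a transcription factor that binds C/EBP sites, had 465 ± 11.4 TPM in Fb-Epn and 136 ± 10.7 in Fb-Par, compared with 84.5 ± 2.07 in Fb-Skn. Its log2 fold change was 2.32 for Fb-Epn against Fb-Skn (adjusted p = 7.8e-14, edgeR) and 1.78 against Fb-Par (adjusted p = 9.8e-13). The part of *Cebpd* in the level of any gene described here was not tested. Of the 9 macrophage markers, 8 had the same order as *Cebpd*, and their part in its level was not tested. *Zfp36l1*, which promotes decay of AU-rich mRNAs, was lowest in Fb-Par, at 131 ± 7.68 TPM against 363 ± 11.02 in Fb-Epn and 492 ± 29.6 in Fb-Skn, with a log2 fold change of -2.06 for Fb-Par against Fb-Skn (adjusted p = 3.3e-14, edgeR).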

How the data were processed

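RNA was sequenced in 9 libraries, 3 per fibroblast type (Fb-Epn, Fb-Par, Fb-Skn), grouped by the sample labels. Per the labels, directional libraries were made from poly(A) RNA. The submitters' processing notes name FastQC 0.11.7, Trimmomatic 0.38, HISAT2 2.1.0, featureCounts 1.6.3 and the build rn6. The strand setting of the counting is not given in the sources used here. The authors deposited raw counts per gene. The authors also deposited TPM, which equal count divided by a length per gene and scaled, and FPKM, which are not a rescaling of the counts.

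Counts were tested with edgeR 4.0.16 in R 4.3.3 (TMM, default expression filter, quasi-likelihood F test, all 9 libraries in 1 model, two-sided). TMM factors were 0.955 to 1.03 and the common coefficient of variation 8.25%. P-values were adjusted by Benjamini-Hochberg within each comparison over 13273 genes. Replicates of a type differed by more than sampling noise, at 3.18 to 5.45 chi-square per gene, and none was counted as a duplicate. Alternatives used RLE, upper-quartile or no normalization factors, DESeq2 1.42.0, limma 3.58.1 on log2 TPM with pseudocounts of 1 and 0.1 and on log2(FPKM + 1), other filters, 2 types at a time, a replicate block, each library left out, and an adjusted p of 0.05. These edgeR steps had been tested on simulated counts. Tables and figures used Python 3.11.15, pandas 2.3.3, scipy 1.17.1 and matplotlib 3.10.9.

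The genes and the pathway and marker lists were chosen with earlier results of these data known. All measured members were named. Of the pathway lists, genes with an adjusted p under 0.01 and a more than 4-fold change in at least 1 comparison were named, with every gene that had a count in the lists of synthases, of transport and breakdown and of receptors, and for each tested member the 3 genes nearest in pattern. *Alox5* and *Prrx2* were named outside this rule. Names of the lists without a row were not analysed here, and some genes that the rule names or the marker sums hold are not reported here by themselves.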

Additional observations from a re-analysis of the deposited data

How the results depend on the processing

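Over 20 alternative settings, 468 of 476 log2 fold changes of the 8 genes kept their direction and side of the threshold, 7 lost a call and 1 changed direction. The lost calls were *Ptger1* and *Ptgfr* as given in the report, with *Ptgfr* between Fb-Par and Fb-Skn at -0.28 on log2(TPM + 0.1) with limma (adjusted p = 0.019). *Ptger1* between Fb-Epn and Fb-Skn changed direction on log2(FPKM + 1), to 0.052 (adjusted p = 0.84, limma), a setting chosen after seeing the data, and the cause was not tested. On that scale 2 genes changed more than 4-fold between Fb-Epn and Fb-Skn and 1 between Fb-Epn and Fb-Par. The latter count was also 1 with limma on log2(TPM + 1), and 1 when a gene needed at least 10 counts in every library, which removes *Ptger2*. Shares of all tested genes called are not given for the alternative settings of this section. The counts of called genes under them therefore show only whether they moved.

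When 1 library at a time was left out, the called genes numbered 7 each time between Fb-Epn and Fb-Skn, 5 to 6 between Fb-Epn and Fb-Par and 5 each time between Fb-Par and Fb-Skn, the DE genes 4, 2 and 2 each time, and the called pathway genes 34 to 37, 28 to 34 and 33 to 37.

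Same-numbered libraries of different types did not deviate together (r = -0.08 to 0.02 over 9 pairs, across genes), so the numbers were not taken to pair the samples. With the replicate block, 7, 6 and 5 genes and 35, 33 and 35 pathway genes were called in the 3 comparisons, and no call of the 8 genes changed.

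The shares depend on the unit. By CPM, which does not correct for length, the share of *Ptgs2* was 77.9% in Fb-Epn and 49.6% in Fb-Par, against 31.4% in Fb-Skn, *Ptgfr* took 66.8%, 46.9% and 36.2% of the receptors, *Ptger4* 14.6%, 21.4% and 7.20%, *Ptger3* 42.8% in Fb-Skn, *Ptger1* 13.7% in Fb-Epn and 13.8% in Fb-Skn, and *Ptger2* 1.57% in Fb-Epn. By FPKM, *Ptgs2* took 39.2% in Fb-Par, *Ptgfr* 63.3%, 46.1% and 32.5%, *Ptger4* 26.2%, 42.0% and 12.8%, *Ptger3* 5.56% in Fb-Par and 51.6% in Fb-Skn, and *Ptger1* 4.21%, 6.09% and 3.08%. Depth limits *Ptger2* and *Ptgds*, with at most 19 counts and 1 count in a library.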

Other observations

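The tested genes nearest in pattern to the genes described were found by the root mean square difference of centred log2 CPM over the 9 libraries, which is a description and says nothing of shared function or control. For *Ptgs2* these were *Smpdl3a* (0.189), *Nfkbiz* (0.205) and *Rgs2* (0.207). For *Ptges* they were *Nid2* (0.195), *Trpc6* (0.253) and *Wnt4* (0.291), and for *Ptger3* they were *Mycn* (0.245), *Lce1l* (0.287) and *Rbm24* (0.316). *Ptger2*, with its low counts, was nearest to *Angptl7* (0.194), *PCOLCE2* (0.252) and *Gprc5a* (0.273). *Ptgfr* was nearest to *Bmp3* (0.0741), *Psat1* (0.0875) and *Mthfd1l* (0.095). *Ptger4* was nearest to *Ppm1m* (0.111), *Gpr162* (0.112) and *Rcan3* (0.134), and *Ptger1* to *Immp1l* (0.0866), *Rnf34* (0.101) and *Tsfm* (0.106). Genes with small changes between types have small differences on this measure, so values are not comparable between the genes described.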
